A study of Homo sapiens with 24 samples.

Results

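Gene expression was compared between MB468 cells kept in Met+ medium (0 h) and MB468 cells kept for 2 h in Met-Hcy+ medium, as 3 libraries against 3, which are 6 of the 24 libraries of the series. MB468 is short for MDA-MB-468, an established triple-negative breast cancer cell line of basal type. The cells at 0 h were in growth medium with 100 μM methionine, and for the 2 h group methionine was left out and 370 μM DL-homocysteine put in its place. All groups shared the same base medium with dialyzed serum, cysteine, glutamine and vitamin B12. The other 18 libraries were MB468 at 0.5 h and 12 h and MB468res-R8 at 0, 0.5, 2 and 12 h. MB468res-R8 is a single clone that grew out of MB468 after long culture in Met-Hcy+ medium and that proliferates without methionine, so it stands for 1 such line. The labels number 3 replicates a group and do not say that they were separate cultures, so the p-values measure the spread between these samples, which may be technical. No sample was collected 2 h after a change to fresh Met+ medium, so the change of medium and the loss of methionine cannot be told apart at 2 h.

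Methionine is an essential amino acid and the source of S-adenosylmethionine (SAM), the methyl donor of most cellular methylation. Homocysteine is what remains of SAM after its methyl group is given away and the adenosine is removed, and methionine synthase can turn it back into methionine with folate and vitamin B12. Cells that lack an amino acid activate the kinase GCN2, whose phosphorylation of eIF2 favours translation of the transcription factor ATF4. Growth factors and many stresses act through MAPK kinases on immediate early genes such as FOS and EGR1, whose mRNAs are made within minutes and are short-lived.

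Poly(A)-selected RNA was sequenced, and the values below are counts of reads per gene. Totals ranged from 12015955 to 28564968 counts in the 6 libraries, and the lowest was MB468 2 h replicate 2. Markers of the line were present in all 6, with EGFR at 2105 to 2375 and KRT5 at 1993 to 2711 CPM (counts scaled to the library total). Of the receptors that define triple-negative tumours, PGR was at 0 in all 6, whereas ESR1 lay between 15.7 and 22.1 and ERBB2 between 81.5 and 94.9 CPM. Among 6 fibroblast markers and 7 leukocyte and endothelium markers, COL1A2 was at 0 in all 6 libraries, but COL1A1 lay between 33.3 and 38.3 and CD14 between 137 and 159.9 CPM at both times. MB468 2 h replicate 2 stood apart. RNAs without a poly(A) tail made up 0.371% of its counts, against 0.0269% to 0.0351% in the other 23 libraries. With at least 20 counts scaled for library size, 105 of its genes were at least 2-fold over both other libraries of its group. Only 41 of these lack a poly(A) tail. The number of such genes was 51 in MB468 2 h replicate 1 and 42 in replicate 3. Results that rest on MB468 2 h replicate 2 are given with and without it.

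Of 14739 genes tested with edgeR's quasi-likelihood test, 2425 (16.5%) differed between 0 h and 2 h at a Benjamini-Hochberg adjusted p under 0.05, here termed called. Of these, 1253 (8.5% of all genes tested) were higher at 2 h and 1172 (7.95%) were lower. Most differences were small. The median absolute log2 fold change of the called genes was 0.33, and 853 of them changed by less than 0.25. At least 2-fold changes were called for 249 genes (1.69%), with 194 (1.32%) higher and 55 (0.373%) lower. Without RNAs that lack a poly(A) tail these were 166 higher and 39 lower. Without MB468 2 h replicate 2, 2091 genes were called, and 1920 of the 2425 kept their call. Over all genes tested the median log2 fold change was 0.0015. The values of the 2 groups did not overlap in 4283 genes (29.1%), with 2 h higher in 14.9% and lower in 14.1% of all genes tested. Some genes named below were picked partly because their groups did not overlap, so for them that remark is no further evidence. Normalized counts below are counts divided by the TMM-scaled library size and put on the scale of the mean library, and ± after a log2 fold change is its standard error. With spike-in RNAs as the scale, described last, 240 genes were called higher and 9269 lower, and the median of all genes shifted to -0.42. In bulk RNA, a change in the share of a kind of cell and a change in RNA per cell cannot be told apart.

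**Figure D1:**
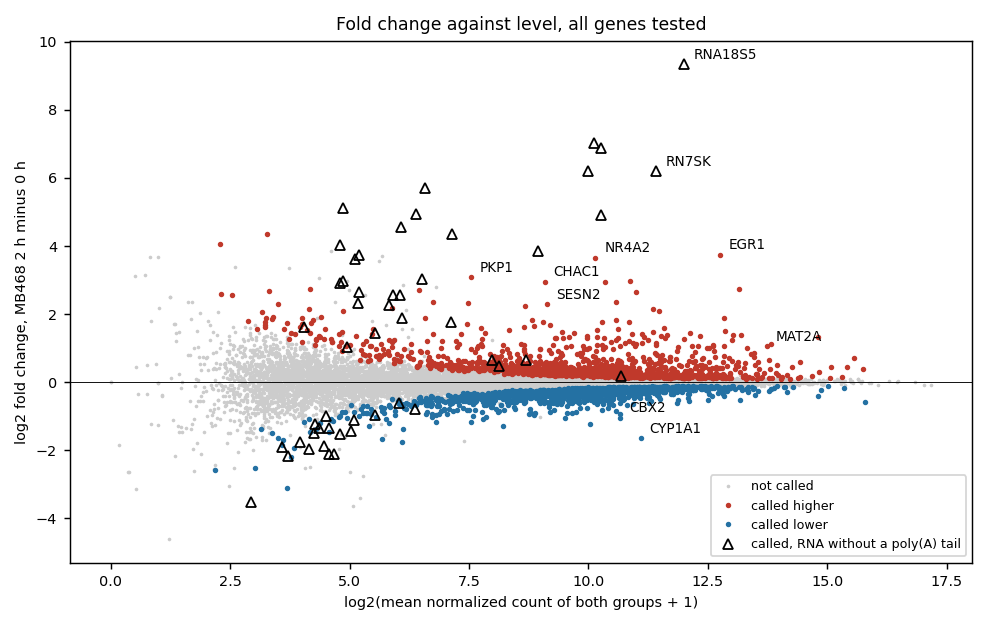
Log2 fold change between MB468 2 h and 0 h (y axis) against log2 of the mean normalized count of both groups plus 1 (x axis) for the 14739 genes tested. Red and blue points are genes called higher and lower, grey points are not called, and open triangles are called RNAs without a poly(A) tail, which include RNA18S5 at a log2 fold change of 9.34.

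Genes of the ATF4 and CHOP response were prominent among the risers. CHAC1, which encodes an enzyme that breaks down glutathione and is a target of ATF4 and CHOP, rose 7.71-fold from 0 h to 2 h. SESN2, whose protein restrains mTORC1 when leucine is short, rose 4.88-fold. DDIT3, which encodes CHOP, rose 3.27-fold, and PPP1R15A, whose product GADD34 brings phosphatase to eIF2, rose 2.38-fold. ATF4 mRNA itself was 1.24-fold higher. All these were relative to the median gene.

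CHAC1 lies at chr15:40953471-40956512 (GRCh38). Its normalized counts were 114, 132 and 128 at 0 h and 832, 979.5 and 1064 at 2 h (log2 fold change 2.95 ± 0.10, adjusted p = 1.09e-21). SESN2 had 206, 176 and 190.3 at 0 h and 866, 991 and 942 at 2 h (log2 fold change 2.29 ± 0.09, adjusted p = 2.46e-21). DDIT3 had 73.9, 93.9 and 76.7 at 0 h and 267, 264 and 276 at 2 h (log2 fold change 1.71 ± 0.13, adjusted p = 8.68e-14). In each of these genes the lowest library at 2 h was well above the highest at 0 h. PPP1R15A counted 1429, 1366 and 1516 at 0 h and 3687, 3373 and 3187 at 2 h (log2 fold change 1.25 ± 0.05, adjusted p = 2.46e-21), again without overlap. The abundant ATF4 mRNA moved little beside them, with 25750, 25990 and 25860 at 0 h and 32650, 31310 and 32250 at 2 h (log2 fold change 0.31 ± 0.03, adjusted p = 1.66e-09), and with spike-in scaling its log2 fold change turned to -0.10, which was not called.

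The other risers of this group code for regulators and secreted proteins. ATF3, a transcription factor of the same family as ATF4, rose 4.27-fold (adjusted p = 1.55e-08). DDIT4, whose product REDD1 restrains mTORC1, rose by 1.87 ± 0.07 on the log2 scale (adjusted p = 2.20e-15). FGF21, a secreted metabolic hormone, rose by 1.07 ± 0.16 (adjusted p = 5.50e-06). STC2, a secreted glycoprotein, was higher by 0.74 ± 0.08 (adjusted p = 3.62e-06), and CEBPG, a partner of ATF4 on DNA, by 0.63 ± 0.04 (adjusted p = 1.22e-14), although CEBPG was not called with spike-in scaling. Of 35 ATF4 and CHOP target genes tested, 17 were called higher and 1 lower, with a median log2 fold change of 0.21 against 0.0015 for all genes. The faller was ATF5, a relative of ATF4 (-0.30, adjusted p = 0.00323).

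Not every member of the list moved with CHAC1. ASNS, the asparagine synthetase gene and a standard ATF4 target, had 7436, 7814 and 8968 at 0 h and 8026, 8138 and 7335 at 2 h, and the groups overlapped (log2 fold change -0.04 ± 0.07, adjusted p = 0.777); with spike-in scaling it was called lower, at -0.45, near the shift of the median gene. TRIB3, a pseudokinase gene that responds to ATF4 and CHOP, had 3756, 3486 and 4216 at 0 h and 5036, 4667 and 4321 at 2 h. These groups did not overlap, yet TRIB3 was not called by the main edgeR fit (log2 fold change 0.30 ± 0.10, adjusted p = 0.054). DESeq2's Wald test called it higher (log2 fold change 0.29), as did edgeR with only the libraries of the groups compared (0.30). It was also called without RNAs that lack a poly(A) tail (0.30) and with at least 10 counts in every library (0.30). The same held without MB468 0 h replicate 3 (0.37) and without MB468 2 h replicate 3 (0.36). Of 20 cytosolic aminoacyl-tRNA synthetase genes, many of which are ATF4 targets, 1 was called higher and none lower by edgeR. Among 28 genes for amino acid sensors and brakes of mTORC1, 4 were called higher (14.3%), ATF4 among them, and 2 lower (7.14%). All genes tested had 8.5% and 7.95%. The list had 2 called higher without MB468 0 h replicate 2, 0 h replicate 3 or 2 h replicate 2. PPP1R15B, which encodes the constitutive eIF2 phosphatase subunit, was one of the 2 that fell (-0.25, adjusted p = 1.03e-04), in the direction opposite to PPP1R15A.

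The promoters of 3 of these genes are shown because they hold the element that C/EBP-ATF dimers bind, here searched as TGATGNAA on both strands, and because CHAC1 and FGF21 rose while ASNS did not. Each line gives the 250 bases before the RefSeq start site (GRCh38.p14), read 5′ to 3′ on the gene's strand, with the match in capitals. CHAC1 is chr15:40953221-40953470 on the plus strand, FGF21 chr19:48755274-48755523 on the plus strand and ASNS chr7:97872409-97872658 on the minus strand.
CHAC1: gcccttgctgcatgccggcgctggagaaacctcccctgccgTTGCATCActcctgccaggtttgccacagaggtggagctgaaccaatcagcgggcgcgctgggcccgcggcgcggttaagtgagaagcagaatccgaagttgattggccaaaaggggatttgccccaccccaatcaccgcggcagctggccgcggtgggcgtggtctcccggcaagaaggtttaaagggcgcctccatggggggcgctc
FGF21: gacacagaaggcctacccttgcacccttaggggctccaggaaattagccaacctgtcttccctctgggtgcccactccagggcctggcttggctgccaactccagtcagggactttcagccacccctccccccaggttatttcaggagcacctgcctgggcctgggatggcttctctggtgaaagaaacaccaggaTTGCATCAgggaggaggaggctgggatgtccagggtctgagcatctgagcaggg
ASNS: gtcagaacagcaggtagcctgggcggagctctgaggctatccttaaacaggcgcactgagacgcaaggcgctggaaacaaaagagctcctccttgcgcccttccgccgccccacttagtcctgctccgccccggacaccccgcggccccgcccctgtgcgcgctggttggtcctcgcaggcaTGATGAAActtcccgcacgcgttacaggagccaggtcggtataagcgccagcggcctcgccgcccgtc
The match starts at position -209 from the start site in CHAC1, -54 in FGF21 and -68 in ASNS. In windows of 300 bases around the start site (250 before and 50 after), the element was present in 10 of 30 list members with a promoter sequence (33.3%). It was present in 4.21% of the called risers, in 2.14% of the called fallers and in 2.83% of the 11214 tested genes with such a sequence. The list was written by hand from known ATF4 and CHOP targets, so its share is not a result of these data. The matching letters were thus present both in genes that rose and in ASNS, which was not called.

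Immediate early genes rose as a group. Of 37 such genes tested, 31 were called higher and none lower, with a median log2 fold change of 1.07. EGR1, a zinc finger transcription factor induced by MAPK signalling, rose 13.5-fold, and NR4A2, an orphan nuclear receptor, rose 12.6-fold. The ZFP36 family, whose proteins bind AU-rich elements and speed the decay of short-lived mRNAs, rose with them. Of 21 genes listed as MAPK feedback, which include targets of the pathway such as PHLDA1, 15 were called higher and none lower (median 0.47). With spike-in scaling 6 of them were called higher and 5 lower (median 0.05).

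EGR1 lies at chr5:138465479-138469303 (GRCh38) and had 999, 973 and 875 at 0 h and 12630, 13150 and 12750 at 2 h (log2 fold change 3.75 ± 0.10, adjusted p = 8.97e-15). FOS, the partner of JUN in the AP-1 factor, had 194, 198 and 206 at 0 h and 675, 698 and 720.5 at 2 h (log2 fold change 1.81 ± 0.11, adjusted p = 1.23e-11). NR4A2 had 189, 153 and 158 at 0 h and 2287, 1536 and 2442 at 2 h (log2 fold change 3.66 ± 0.27, adjusted p = 1.73e-08), and its replicate 2 was the lowest of the 3 libraries at 2 h. None of the 3 had overlapping groups. The paralogs NR4A1 and NR4A3 rose by 2.75 ± 0.22 and 2.65 ± 0.36 on the log2 scale (adjusted p = 7.21e-08 and 4.10e-05), and EGR3 by 2.95 ± 0.18 (adjusted p = 1.74e-09). MYC, the growth-promoting transcription factor, had 8835, 9693 and 8708 at 0 h and 20130, 20790 and 18490 at 2 h (log2 fold change 1.12 ± 0.05, adjusted p = 1.49e-17).

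ZFP36L1 gave one of the smallest p-values of the comparison. Its counts were 5024, 4765 and 4741 at 0 h and 11930, 11480 and 11090 at 2 h (log2 fold change 1.25 ± 0.05, adjusted p = 3.54e-23), with no overlap. ZFP36 itself rose by 1.53 ± 0.07 (adjusted p = 4.10e-21). The Krüppel-like factor genes KLF10 (1.40, adjusted p = 3.77e-21) and KLF9 (1.17, adjusted p = 1.65e-16), the stress gene GADD45B (1.39, adjusted p = 3.77e-21) and the pseudokinase gene TRIB1 (1.23, adjusted p = 2.46e-21) were also among the risers, with the log2 fold change first in each bracket. IER5, an early response regulator of heat shock factor, rose by 1.07 ± 0.07 (adjusted p = 1.14e-10). MXD1, which encodes a MAX partner that opposes MYC on DNA, rose by 1.29 ± 0.09 (adjusted p = 3.82e-14).

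IRF2BP2, which encodes a corepressor that binds IRF2, had the smallest p of all genes. It counted 4767, 4677 and 4776 at 0 h and 9474, 10080 and 10290 at 2 h (log2 fold change 1.07 ± 0.04, adjusted p = 2.74e-23). Its paralogs did not share 1 direction: IRF2BPL rose by 0.75 ± 0.10 (adjusted p = 1.30e-05), whereas IRF2BP1 fell (log2 fold change -0.43, adjusted p = 2.44e-04).

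Among the MAPK feedback genes, DUSP1, a phosphatase that acts on p38, JNK and ERK, had 815, 816 and 865 at 0 h and 2841, 2822 and 2839 at 2 h (log2 fold change 1.77 ± 0.07, adjusted p = 1.05e-15). The libraries at 2 h were nearly equal and far above those at 0 h. DUSP5, an ERK phosphatase of the nucleus, rose by 1.37 ± 0.06 (adjusted p = 7.95e-19) and the weakly expressed DUSP8 by 1.19 ± 0.30 (adjusted p = 0.00395). PHLDA1, an ERK-dependent gene, rose by 0.58 ± 0.04 (adjusted p = 1.08e-13), but neither DUSP8 nor PHLDA1 was called with spike-in scaling. Of 12 genes for EGFR family receptors and ligands, 5 were called higher and none lower (median 0.17). The ligands led them. HBEGF had 704, 637 and 623 at 0 h and 1512, 1755 and 1673 at 2 h (log2 fold change 1.32 ± 0.08, adjusted p = 3.09e-15). AREG counted 139, 158 and 122 at 0 h and 249, 301 and 334 at 2 h (log2 fold change 1.06 ± 0.16, adjusted p = 2.37e-06), and EREG rose by 1.03 ± 0.18 (adjusted p = 4.25e-05). None of the 3 ligand genes had overlapping groups.

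Promoters of 4 risers are shown for 2 elements: the CArG box that serum response factor binds (CC, then 6 letters each A or T, then GG) and the cAMP response element (TGACGTCA). Each gives the 250 bases before the start site in the same way, with matches in capitals. EGR1 and ZFP36L1 are on the early response list, DUSP1 on the MAPK feedback list and PPP1R15A on the ATF4 and CHOP list. EGR1 is chr5:138465229-138465478 on the plus strand and holds CArG boxes at -105 and -83. The other 3 hold a cAMP response element, at -125 in DUSP1 (chr5:172771196-172771445, minus strand), at -52 in ZFP36L1 (chr14:68793417-68793666, minus strand) and at -58 in PPP1R15A (chr19:48872171-48872420, plus strand).
EGR1: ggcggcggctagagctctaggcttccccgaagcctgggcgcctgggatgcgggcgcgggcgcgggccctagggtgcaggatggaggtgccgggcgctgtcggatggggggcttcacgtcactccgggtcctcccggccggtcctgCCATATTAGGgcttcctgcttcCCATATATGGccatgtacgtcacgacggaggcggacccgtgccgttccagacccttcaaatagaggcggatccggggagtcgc
DUSP1: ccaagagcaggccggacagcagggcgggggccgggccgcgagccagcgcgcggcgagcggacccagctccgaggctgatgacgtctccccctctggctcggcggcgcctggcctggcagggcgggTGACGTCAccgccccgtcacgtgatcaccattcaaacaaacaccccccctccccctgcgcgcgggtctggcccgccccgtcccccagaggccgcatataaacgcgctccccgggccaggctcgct
ZFP36L1: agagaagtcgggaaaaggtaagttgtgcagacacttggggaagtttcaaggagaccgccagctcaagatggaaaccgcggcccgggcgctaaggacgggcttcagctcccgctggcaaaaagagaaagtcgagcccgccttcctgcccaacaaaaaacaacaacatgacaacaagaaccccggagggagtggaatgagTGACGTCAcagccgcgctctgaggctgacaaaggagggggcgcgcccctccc
PPP1R15A: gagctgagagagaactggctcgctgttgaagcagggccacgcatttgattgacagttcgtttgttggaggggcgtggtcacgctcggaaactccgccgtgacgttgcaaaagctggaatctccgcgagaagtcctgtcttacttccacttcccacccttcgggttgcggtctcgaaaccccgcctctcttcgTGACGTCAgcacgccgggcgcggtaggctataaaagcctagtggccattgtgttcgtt
The cAMP response element was in 9.22% of promoters of the risers of at least 2-fold (13 of 141) and in 5.19% of all called risers. It was in 3.04% of the called fallers and in 3.68% of all tested genes with a promoter sequence. The risers of at least 2-fold include 28 RNAs without a poly(A) tail. Of these, at least HIST1H2AL and HIST1H4E hold the element, and both lost their call without MB468 2 h replicate 2. Whether others of the 28 hold it is not given here. The share without that library was not computed. CArG boxes were in 1.67% of the called risers and 1.5% of all, and in 11.1% of the early response list (3 of 27 genes). These shares describe letters in a window and were not tested.

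**Figure D2:**
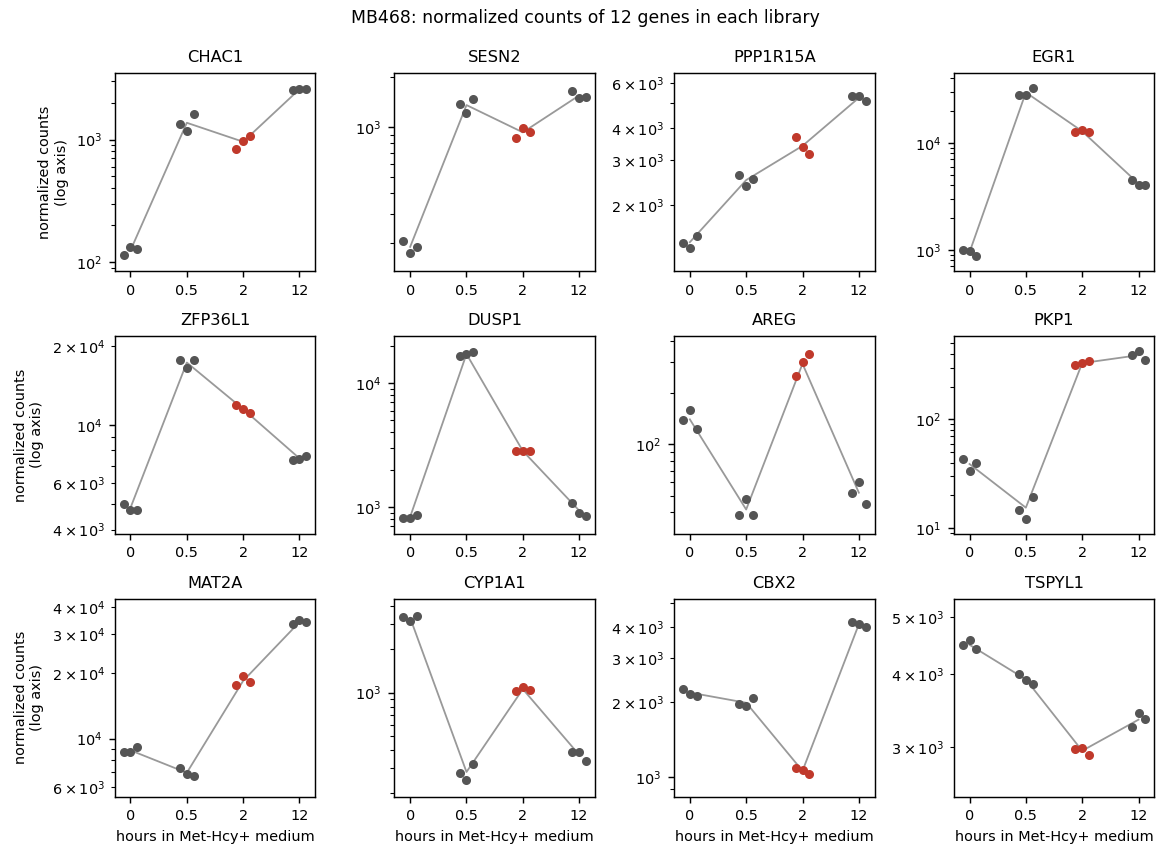
Normalized counts (log y axis) of 12 genes in each MB468 library at 0, 0.5, 2 and 12 h (x axis). Points are single libraries, red at 2 h, and grey lines join the group means; EGR1 counted 12630 to 13150 at 2 h and 875 to 999 at 0 h, and CBX2 1031 to 1084 at 2 h and 2121 to 2262 at 0 h.

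MAT2A, which encodes the enzyme that makes SAM from methionine, rose 2.08-fold. MAT2A lies at chr2:85539168-85545281 (GRCh38) and had 8659, 8717 and 9134 at 0 h and 17580, 19350 and 18230 at 2 h (log2 fold change 1.06 ± 0.05, adjusted p = 4.94e-20). All 3 libraries at 2 h were above all at 0 h. Of 21 genes of the methionine cycle, SAM synthesis and transsulfuration, MAT2A was the 1 called higher and 3 were called lower (median -0.01), and the count of 4 fell to 2 without MB468 2 h replicate 3. MTR, which encodes methionine synthase, fell with 1548, 1577 and 1414 at 0 h and 1173, 1218 and 1105 at 2 h (log2 fold change -0.38 ± 0.06, adjusted p = 2.93e-06). In the polyamine pathway, which consumes SAM, 1 of 15 genes rose and 2 fell. SAT1, which starts polyamine catabolism, rose by 0.51 ± 0.06 (adjusted p = 2.41e-07), a call it lost with spike-in scaling. AMD1, which decarboxylates SAM for polyamine synthesis, fell (log2 fold change -0.25, adjusted p = 7.05e-06). Of 14 folate one-carbon genes, none was called higher and 1 lower by edgeR.

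Some lipid genes were called at 2 h, to be read beside the 8.5% called higher and 7.95% lower of all genes tested. Of 31 genes for sterol synthesis and its SREBP feedback, 3 were called higher (9.68%) and 4 lower (12.9%, median -0.02). The counts were 6 higher without MB468 2 h replicate 1 and 2 lower without 0 h replicate 2. INSIG1, which holds SREBP in the endoplasmic reticulum, rose by 0.46 ± 0.11 (adjusted p = 0.00596), a call it lost with spike-in scaling. The synthesis enzyme gene MSMO1 fell slightly (-0.23, adjusted p = 8.92e-04, the log2 fold change given first). Of 29 fatty acid synthesis genes, 1 was called in each direction (3.45%). ACSL3, an acyl-CoA synthetase of lipid droplets, was called higher (0.24, adjusted p = 2.73e-06, and -0.17 with spike-in scaling). SCD, the desaturase that makes oleate, was called lower (-0.16, adjusted p = 0.00353).

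The 30 fatty acid beta-oxidation genes had none called higher and 1 lower (3.33%) by edgeR. For phosphatidylcholine and phosphatidylethanolamine synthesis, none of 18 was called higher and 4 lower (22.2%, median -0.04). Without MB468 2 h replicate 2 the counts were 0 and 2, without 0 h replicate 2 they were 1 and 2, and without 2 h replicate 1 they were 2 and 3. The 4 called lower include PCYT1A, the rate-limiting enzyme of phosphatidylcholine synthesis (-0.25, adjusted p = 8.54e-04), and LPIN1, which makes diacylglycerol (-0.23, adjusted p = 0.00171). Of 17 lipid droplet and triglyceride genes, none was called higher and 4 lower (23.5%, median -0.06), and 2 without MB468 2 h replicate 3. HILPDA, an inhibitor of the lipase ATGL, had 634, 608 and 592 at 0 h and 416, 396 and 400.4 at 2 h (log2 fold change -0.60 ± 0.08, adjusted p = 2.19e-07). FITM2, which is needed for droplet budding, fell as well (-0.69, adjusted p = 0.00229). The 39 RNA and protein arginine methyltransferase genes had 5 called in each direction (6 in all without MB468 0 h replicate 2 or 3, or 2 h replicate 1), led by RBM15, a subunit of the complex that methylates adenosines in mRNA (0.78, adjusted p = 1.06e-13).

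Of 23 chemokine and feedback genes under NF-kB, 12 were called higher at 2 h and none lower (median 0.25), whereas with spike-in scaling 7 were called higher and 9 lower (median -0.16). IL6, the cytokine gene, had 71.2, 61 and 41.2 at 0 h and 317, 262 and 306 at 2 h (log2 fold change 2.31 ± 0.18, adjusted p = 1.70e-11). TNFAIP3, whose product A20 ends NF-kB signalling, rose by 1.78 ± 0.14 (adjusted p = 1.08e-08), and the chemokine gene CXCL3 rose from counts under 28 to between 54 and 78 (log2 fold change 1.40 ± 0.25, adjusted p = 4.10e-05).

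Several keratin genes and the epithelial genes PKP1 and ZNF750 were called higher. PKP1, which encodes the desmosomal plaque protein plakophilin 1, had 43.3, 33.7 and 39.8 at 0 h and 317, 329.7 and 341 at 2 h (log2 fold change 3.09 ± 0.17, adjusted p = 1.27e-17), the rise of a gene that was barely expressed at 0 h. ZNF750, a transcription factor of epidermal differentiation, rose by 2.97 ± 0.21 (adjusted p = 1.36e-08). Of 16 keratin genes, 8 were called higher and none lower (median 0.27), whereas with spike-in scaling 2 were called higher and 5 lower. Of 9 basal-like markers of the line, 5 were called higher and 1 lower, and the transcription factor gene FOXC1 lay between 51.5 and 53.7 CPM at 0 h and between 41.7 and 44.5 at 2 h. The epithelial markers EPCAM and CDH1 had overlapping CPM at the 2 times. EPCAM lay between 296.3 and 303.1 at 0 h and between 295.7 and 323.8 at 2 h. CDH1 lay between 375.5 and 391.2 at 0 h and between 377 and 398.6 at 2 h. KRT6A, an inducible keratin, had 31.6, 61 and 24.1 at 0 h and 163, 130 and 158 at 2 h (log2 fold change 1.88 ± 0.20, adjusted p = 9.32e-09), and the groups did not overlap. The abundant KRT17 rose by 0.70 ± 0.10 (adjusted p = 5.42e-05), while KRT16 (0.63, adjusted p = 4.49e-07) and KRT6B (0.60, adjusted p = 6.16e-13) were called here but not with spike-in scaling. KRT6A and KRT6B, and likewise KRT16 and KRT17, are close copies, so reads could be split between them.

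Of 15 Notch genes, 6 were called higher and 1 lower (median 0.16), against 4 and 6 with spike-in scaling. NRARP, a Notch target that limits the Notch complex, had 469.8, 411 and 630.4 at 0 h and 2714, 2448 and 2450 at 2 h (log2 fold change 2.37 ± 0.21, adjusted p = 3.01e-07). The ligand gene JAG1 rose by 1.41 ± 0.08 (adjusted p = 6.76e-13), and the repressor genes HEY1 (2.73, adjusted p = 1.15e-05) and HES2 (1.89, adjusted p = 0.00717) rose from fewer than 6 normalized counts a library. HES2 lost its call when every library was thinned to the lowest library total (1.71). Of 23 genes of the ID and TGF-beta feedback group, 7 were called higher and 5 lower (median 0.02), against 6 and 13 with spike-in scaling. The lower count was 2 without MB468 0 h replicate 2 or 2 h replicate 3, and 3 without 2 h replicate 1. The inhibitors of bHLH factors ID4, ID1 and ID2 rose by 1.58 ± 0.08, 1.42 ± 0.20 and 1.11 ± 0.15 on the log2 scale (adjusted p = 2.41e-13, 1.68e-06 and 3.33e-07). SMAD3, which carries the TGF-beta signal, fell (log2 fold change -0.65, adjusted p = 1.04e-08).

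Of 21 circadian clock genes, 7 were called higher and 1 lower (median 0.17). The rises were in repressors and output factors: NFIL3 rose by 1.66 ± 0.10, BHLHE40 by 1.50 ± 0.07 and PER1 by 1.48 ± 0.16 (adjusted p = 4.57e-17, 9.57e-14 and 2.65e-06). TEF, which activates the sites that NFIL3 represses, fell (-0.54, adjusted p = 4.56e-07). CDKN1A, which encodes the cell cycle inhibitor p21, had 806, 839 and 919 at 0 h and 1769, 1781 and 1687 at 2 h (log2 fold change 1.04 ± 0.14, adjusted p = 3.22e-05). Among 20 genes for G1 cyclins and CDK inhibitors, it was 1 of 5 called higher, against 2 lower.

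The fallers were fewer at large fold changes. CYP1A1, a cytochrome P450 and the classic target of the aryl hydrocarbon receptor, fell to 0.32 of its level at 0 h. It lies at chr15:74719542-74725528 (GRCh38) and had 3354, 3145 and 3419 at 0 h and 1032, 1102 and 1041 at 2 h (log2 fold change -1.65 ± 0.07, adjusted p = 2.30e-19). CYP1B1, also a target, fell less (-0.39, adjusted p = 9.68e-10), and TIPARP, a target that feeds back on the receptor, went the other way (log2 fold change 0.75 ± 0.11, adjusted p = 4.75e-05). In the receptor's pathway 4 of 13 genes were called higher and 2 lower.

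CBX2, which encodes a chromodomain subunit of Polycomb repressive complex 1, was lower by more than 2-fold. CBX2 lies at chr17:79777311-79787983 (GRCh38) and had 2262, 2160 and 2121 at 0 h and 1084, 1063 and 1031 at 2 h (log2 fold change -1.04 ± 0.06, adjusted p = 5.28e-18). The groups were far apart compared with their spread. Of 21 genes of the complex, 2 were called higher (9.52%) and 5 lower (23.8%, median 0.02), beside 8.5% and 7.95% of all genes tested. The lower count was 3 without MB468 0 h replicate 2 or 2 h replicate 3. Histone lysine methyl writers and erasers went both ways, with 8 of 45 called higher (17.8%) and 7 lower (15.6%, median 0.02). The demethylase genes JMJD1C (0.66, adjusted p = 6.19e-13) and KDM6B (0.62, adjusted p = 7.18e-05) were called higher, though not with spike-in scaling. The H3K4 methyltransferase genes SETD1B (-0.50, adjusted p = 5.41e-06) and KMT2B (-0.37, adjusted p = 2.89e-05) and PRDM2, a member of the PRDM methyltransferase family (-0.62, adjusted p = 4.36e-14), fell.

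The remaining fallers with the smallest p-values had diverse functions. SYNM, an intermediate filament protein gene, had 1404, 1524 and 1462 at 0 h and 646, 690.5 and 567 at 2 h (log2 fold change -1.21 ± 0.07, adjusted p = 1.90e-16). TSPYL1, of the nucleosome assembly protein family, had 4474, 4567 and 4409 at 0 h and 2971, 2987 and 2901 at 2 h (log2 fold change -0.60 ± 0.04, adjusted p = 2.20e-15). KLHL9, an adaptor of a CUL3 ubiquitin ligase, fell by more than 2-fold (-1.05, adjusted p = 3.05e-13). None of the 3 had overlapping groups. ATXN7L3B, a copy of the SAGA subunit gene ATXN7L3, fell too (-0.76, adjusted p = 2.85e-15), as did MARS2, the mitochondrial methionyl-tRNA synthetase gene (-0.89, adjusted p = 1.60e-12). Of the fallers named here that have a poly(A) tail, TSPYL1, KLHL9, ATXN7L3B, MARS2, IRF2BP1, RRS1, HSPA1A and FOXC1 have a single-exon transcript in the annotation. So do the named risers IER5, IRF2BPL and NRARP. With RNAs that lack a poly(A) tail left out, single-exon genes made up 8.43% of the called fallers with an annotated transcript (90 of 1067). The share was 2.58% of the called risers (30 of 1164) and 3.03% of all tested genes with a transcript (404 of 13336). At changes of at least 2-fold it was 26.7% of the fallers (8 of 30) and 7.01% of the risers (11 of 157). Among the 100 genes with the lowest p per direction it was 14.7% for the fallers and 7.22% for the risers. This is a description without a test.

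URB2, a nucleolar factor needed for ribosome assembly, had 2042, 2171 and 2126 at 0 h and 1034, 1123 and 1157 at 2 h (log2 fold change -0.94 ± 0.05, adjusted p = 3.87e-18). It was the strongest of the ribosome biogenesis list, in which 10 of 65 genes were called lower and 7 higher (median -0.01). The assembly factors GRWD1 (-0.52, adjusted p = 7.00e-11) and RRS1 (-0.51, adjusted p = 8.70e-08) fell with it. Of 19 cytosolic heat shock genes, 2 were called higher (10.5%) and 3 lower (15.8%), beside 8.5% and 7.95% of all genes tested. HSPA8, the constitutive HSP70 chaperone, had 65780, 70070 and 66610 at 0 h and 46540, 46470 and 41900 at 2 h (log2 fold change -0.59 ± 0.06, adjusted p = 7.07e-09). HSPA1A, the inducible HSP70 gene with a near-identical neighbour that can share its reads, fell as well (-0.97, adjusted p = 2.28e-08), whereas the cochaperone gene DNAJB1 was called higher (0.50, adjusted p = 3.70e-11), though not with spike-in scaling.

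Of 24 NRF2 targets, which defend against oxidants, none was called higher and 5 lower (median -0.04), and 3 were called without MB468 0 h replicate 3 or without 2 h replicate 1. SRXN1 (-0.37, adjusted p = 6.16e-06), OSGIN1 (-0.44, adjusted p = 6.48e-04) and TRIM16 (-0.27, adjusted p = 2.54e-04) were among them. In the endoplasmic reticulum, 3 of 28 chaperone and degradation genes were called higher and 1 lower. HERPUD1, a factor of endoplasmic reticulum-associated degradation, rose by 0.75 ± 0.08 (adjusted p = 2.34e-07). The sensor gene ERN1 (0.49, adjusted p = 3.77e-04) lost its call with spike-in scaling, and XBP1 (0.21, adjusted p = 0.00353), whose mRNA the ERN1 product splices, turned to -0.20 there without a call. Of the genes for glucose metabolism and its control, PFKFB3 (0.47, adjusted p = 3.82e-08) and the arrestin-domain gene ARRDC3 (0.43, adjusted p = 4.45e-04), were called higher but not with spike-in scaling.

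**Figure D3:**
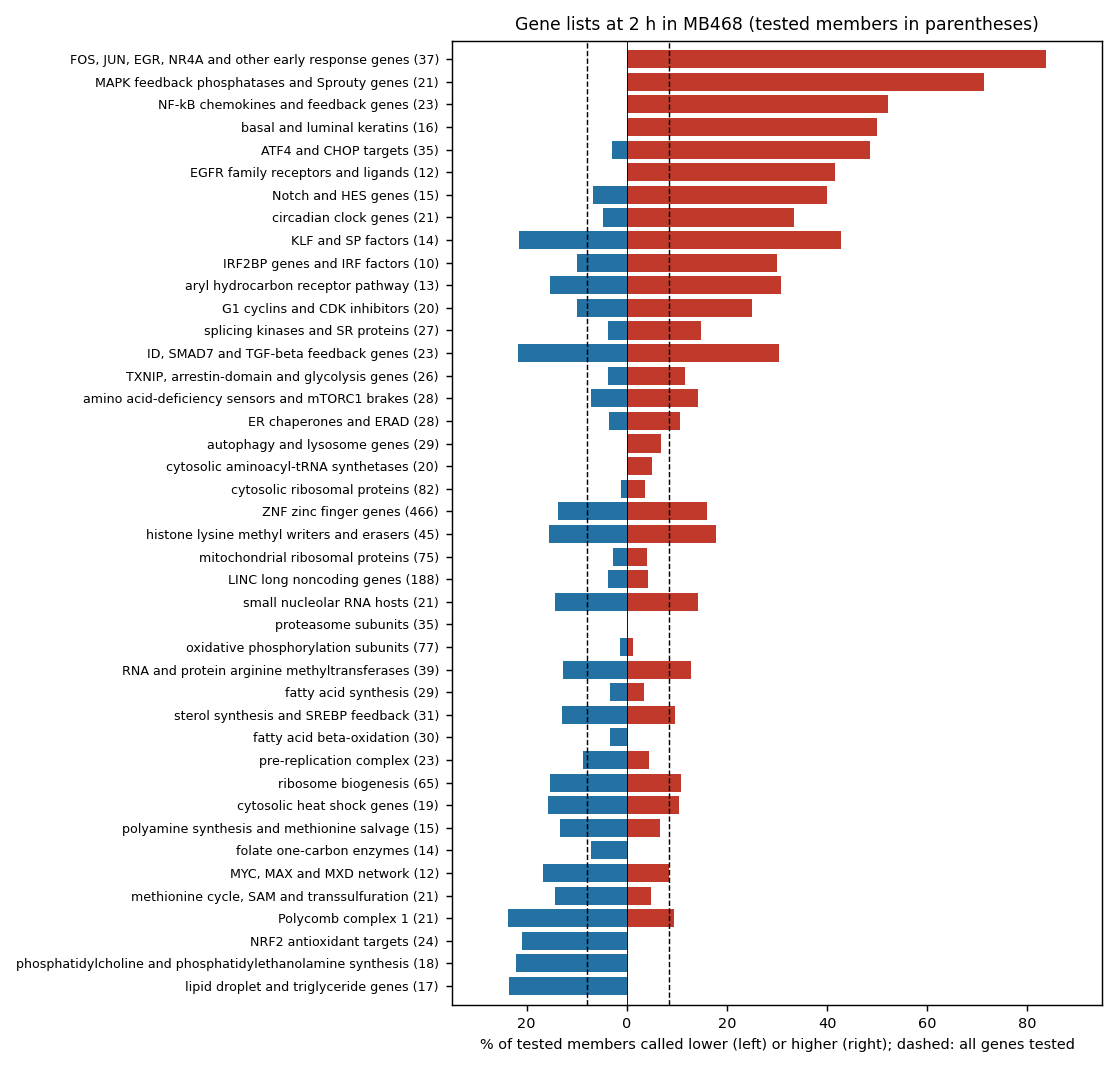
Percent of tested members called higher (red, right) and lower (blue, left) at 2 h in MB468 for each gene list with at least 10 tested members, whose number is in parentheses. Dashed lines mark 8.5% higher and 7.95% lower for all genes tested; the early response list reached 83.8% higher and the proteasome list had no call.

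Large housekeeping groups lay below these background shares. Of 82 cytosolic ribosomal protein genes, 3 were called higher and 1 lower. Mitochondrial ribosomal proteins had 3 higher and 2 lower of 75 (1 higher without MB468 0 h replicate 2, none higher without 2 h replicate 3 and none lower without 2 h replicate 2), and oxidative phosphorylation subunits 1 in each direction of 77. None of 35 proteasome genes was called by edgeR or by DESeq2, and 4 had an unadjusted p under 0.05, all higher; without MB468 2 h replicate 1, 2 were called higher. The 466 zinc finger genes named ZNF lay above the background instead, with 75 called higher (16.1%) and 64 lower (13.7%), although 42 were lower without MB468 0 h replicate 2 or without 2 h replicate 3. For comparison, the shares called higher and lower were 10.8% and 15.4% for ribosome biogenesis and 10.7% and 3.57% for the endoplasmic reticulum genes. They were 4.76% and 14.3% for the methionine cycle and 6.67% and 13.3% for the polyamine pathway. The folate genes had 0% and 7.14%, the aryl hydrocarbon receptor pathway 30.8% and 15.4%, and the G1 cyclins and CDK inhibitors 25% and 10%. For the RNA and protein arginine methyltransferases both shares were 12.8%. The NRF2 targets had 0% and 20.8%, the Notch genes 40% and 6.67%, and the clock genes 33.3% and 4.76%. The ID and TGF-beta feedback group had 30.4% and 21.7%.

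Several lists had no call in 1 direction, and for these the counts at an unadjusted p under 0.05 and by DESeq2 are given here. In the lower direction these were 0 and 0 for the early response genes, 1 and 0 for the MAPK feedback genes, 0 and 0 for the EGFR family and for the keratins, 3 and 1 for the NF-kB genes, and 0 and 0 for the aminoacyl-tRNA synthetases. In the higher direction they were 1 and 1 for the NRF2 targets, 1 and 0 for the folate genes, 2 and 0 for beta-oxidation, 2 and 0 for phosphatidylcholine and phosphatidylethanolamine synthesis, and 0 and 0 for the lipid droplet genes.

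RNAs without a poly(A) tail were the group with the largest fold changes, and for most of them these came from 1 library. RNA18S5, the 18S ribosomal RNA, had 0, 30.5 and 0 at 0 h and 1.35, 24590 and 1.25 at 2 h (log2 fold change 9.34), and without MB468 2 h replicate 2 the log2 fold change was -3.04 and was not called. RN7SK, a small nuclear RNA that restrains the elongation factor P-TEFb, had 75.8, 70.7 and 68.2 at 0 h and 150.4, 16000 and 109 at 2 h (log2 fold change 6.21). Replicates 1 and 3 at 2 h were within the range at 0 h for RNA18S5 and above it for RN7SK, far below replicate 2 in both. RN7SL1, the RNA of the signal recognition particle, had 56.8, 38.5 and 160.4 at 0 h and 82.6, 7004 and 74.1 at 2 h (log2 fold change 4.92), and without that library -0.02. This gene was also not called without MB468 0 h replicate 1 (4.73) or replicate 2 (4.53). RMRP and RPPH1, the RNAs of RNase MRP and RNase P, behaved in the same way, with 7240 and 6567 normalized counts in that library and at most 60.2 and 35.2 in the other 5.

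Replication-dependent histone mRNAs end in a stem-loop in place of a poly(A) tail. Of 32 tested, 21 were called higher with all libraries, 5 without MB468 2 h replicate 2, 12 without 0 h replicate 1 and 9 without 0 h replicate 2. Their sum was 553 CPM in that library, 157 and 162 in the other libraries at 2 h, and 135 to 143 at 0 h. HIST1H1B (4.51, 2.41 and 2.84 at 0 h and 9.48, 543 and 6.28 at 2 h), HIST1H4E (7.21, 3.21 and 4.26 at 0 h and 12.2, 459.7 and 11.3 at 2 h) and HIST1H2AL (2.71, 0 and 1.42 at 0 h and 8.13, 151 and 3.77 at 2 h) show the pattern in normalized counts, and none of the 3 was called without that library. Leaving that library out also ended the calls of all 6 members of the 7SK and 7SL class and of both ribosomal RNAs. Of the 249 genes called with at least 2-fold change, 47 lost their call without it, and 27 of those 47 lack a poly(A) tail.

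Small nucleolar RNAs went the other way and did so without the odd library. Of 95 small nucleolar and Cajal body RNAs tested, 19 were called lower and 2 higher, and without MB468 2 h replicate 2, 20 were called lower and none higher. Their sum was 133 to 137 CPM at 0 h and 91.0 and 98.8 in MB468 2 h replicates 1 and 3, but 140 in replicate 2. SNORD31 had 35.2, 39.3 and 35.5 at 0 h and 9.48, 13.6 and 3.77 at 2 h (log2 fold change -2.11 ± 0.36, adjusted p = 1.85e-05). SNORA33 had 40.6, 42.5 and 36.9 at 0 h and 6.77, 7.76 and 12.6 at 2 h (log2 fold change -2.11 ± 0.35, adjusted p = 1.44e-05). In both, replicate 2 lay with the other libraries at 2 h. SNORA44 (-1.96, adjusted p = 4.55e-04) and SNORD101 (-1.88, adjusted p = 3.40e-04) fell alike. Most of these RNAs lie within introns of host genes, and the library kit did not mark strand, so unspliced host RNA cannot be told from them. METTL12, a mitochondrial methyltransferase gene, was among the largest fallers outside these classes (-1.66, adjusted p = 1.02e-06).

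**Figure D4:**
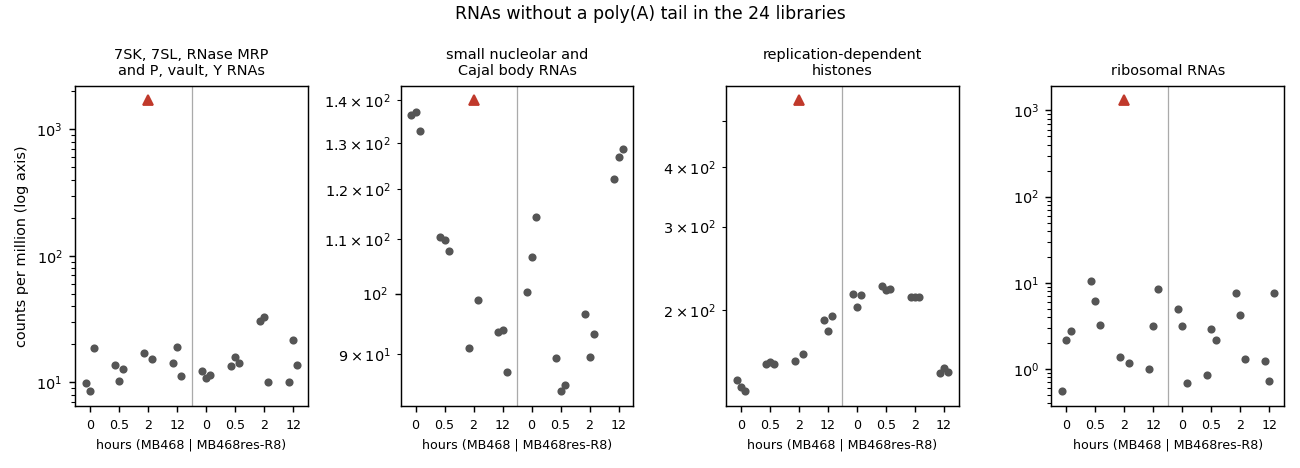
CPM (log y axis) summed over 4 classes of RNAs without a poly(A) tail in the 24 libraries, by hours in medium (x axis) for MB468 (left of the grey line) and MB468res-R8 (right). The red triangle is MB468 2 h replicate 2, at 1697, 140, 553 and 1314 in the 4 panels from left to right; no other library exceeded 32.6, 137, 225 and 10.4.

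The libraries at 0.5 h and 12 h place the 2 h state in time. The comparisons of 0.5 h and of 2 h with 0 h share the 3 libraries at 0 h, so their values are given side by side without a test of likeness. At 0.5 h against 0 h, 5021 genes were called (34.1%), 2396 higher (16.3%) and 2625 lower (17.8%). The test of 2 h against 0.5 h called 4815 genes (32.7%), 2505 higher (17%) and 2310 lower (15.7%). Between 2 h and 12 h, 10298 genes were called (69.9%), 4971 higher at 12 h (33.7%) and 5327 lower (36.1%).

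Early genes took different courses after 0.5 h. FOS stood 5.27 (log2) above 0 h at 0.5 h and 1.81 above it at 2 h, and the fall from 0.5 h to 2 h was called (-3.46, adjusted p = 2.54e-20). DUSP1 went from 4.37 to 1.77 (-2.60, adjusted p = 9.96e-21 for 2 h against 0.5 h) and EGR1 from 4.96 to 3.75 (-1.21, adjusted p = 3.86e-09). NR4A3 had no called rise at 0.5 h (-0.91, adjusted p = 0.129) and was 3.56 higher at 2 h than at 0.5 h (adjusted p = 1.43e-06). By 12 h NR4A1, NR4A2 and NR4A3 had changed from 2 h by -4.35, -4.66 and -6.35 (log2), each called. Of the early response list, 28 genes were called higher and 5 lower at 0.5 h against 0 h, and 12 higher and 15 lower at 2 h against 0.5 h.

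CHAC1, SESN2 and DDIT4 dipped at 2 h between higher levels. CHAC1 was lower at 2 h than at 0.5 h (-0.50, adjusted p = 5.30e-06) and higher again at 12 h than at 2 h (1.43, adjusted p = 5.10e-18). SESN2 did the same (-0.54, adjusted p = 4.37e-07 and 0.74, adjusted p = 4.19e-11), as did DDIT4 (-0.96, adjusted p = 5.30e-11 and 0.35, adjusted p = 4.31e-05). PPP1R15A and CEBPG rose at each step: PPP1R15A by 0.81, 0.44 and 0.62, and CEBPG by 0.15, 0.48 and 1.52 (log2, all called). TRIB3, not called at 2 h by the main edgeR fit, was higher at 12 h than at 2 h, with a mean of 9380 normalized counts (adjusted p = 4.49e-08). ASNS was lower at 12 h (-0.93, adjusted p = 7.29e-11).

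A set of risers had first been lower at 0.5 h. PKP1 stood at -1.37 (log2, against 0 h) at 0.5 h and was 4.46 higher at 2 h than at 0.5 h (adjusted p = 1.20e-20). KRT6A stood at -1.87 and then rose by 3.75 (adjusted p = 2.57e-13), AREG at -1.76 and then by 2.82 (adjusted p = 6.14e-15), and PHLDA1 at -1.27 and then by 1.84 (adjusted p = 3.02e-29). All 4 were called lower at 0.5 h. MAT2A was slightly lower at 0.5 h (-0.34, adjusted p = 2.42e-07), rose by 1.40 to 2 h and by a further 0.90 to 12 h. By list, 12 of 16 keratin genes were called higher and none lower at 2 h against 0.5 h, and 48 of 65 ribosome biogenesis genes were called higher and none lower, after 53 had been called lower at 0.5 h against 0 h.

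CYP1A1 and CBX2 had turning points at different times. CYP1A1 was at its lowest at 0.5 h (-3.58 against 0 h), was 1.93 higher at 2 h than at 0.5 h and lower again at 12 h (-1.52, adjusted p = 3.73e-18 against 2 h). CBX2 stood at -0.14 at 0.5 h, reached its lowest level at 2 h and was 1.95 higher at 12 h (adjusted p = 1.72e-28). URB2 had fallen by 0.5 h (-0.86, adjusted p = 7.78e-18) and no further change to 2 h was called (-0.08, adjusted p = 0.301).

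The same change of medium was made in MB468res-R8, where 639 genes (4.34%) were called at 2 h against 0 h, 363 higher (2.46%) and 276 lower (1.87%). A test of the difference between the responses of the lines called 750 genes (5.09%), with 418 (2.84%) lower in MB468res-R8 and 332 (2.25%) higher. Of the 37 early response genes, 25 had a lower response in MB468res-R8 and 1 a higher one. Of the 35 ATF4 and CHOP targets, 11 had a lower response and none a higher one, and for the 21 MAPK feedback genes these counts were 10 and 0. Among 16 keratin genes, 1 differed, and 6 were called higher at 2 h in MB468res-R8 itself.

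EGR1 in MB468res-R8 had 866, 1046 and 1019 at 0 h and 607, 701 and 641 at 2 h, and it fell (-0.57, adjusted p = 0.00611) from a level at 0 h close to that of MB468. CHAC1 had 227, 242 and 225 at 0 h and 333, 356 and 313 at 2 h, a rise of 0.54 (adjusted p = 5.40e-04). MAT2A rose in both lines, in MB468res-R8 from 9354, 9964 and 8900 to 16910, 17660 and 17870 (log2 fold change 0.89 ± 0.05, adjusted p = 1.49e-16), and the difference of the responses was not called (-0.16 ± 0.07, adjusted p = 0.171). CBX2 fell in both (-0.95, adjusted p = 6.93e-16 in MB468res-R8), with an uncalled difference of 0.09 ± 0.08 (adjusted p = 0.655). JAG1, NRARP and ID4 also rose in MB468res-R8, by 1.14, 2.29 and 1.13 (adjusted p = 1.29e-10, 2.37e-06 and 2.76e-07), and none of their 3 differences between the lines was called.

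**Figure D5:**
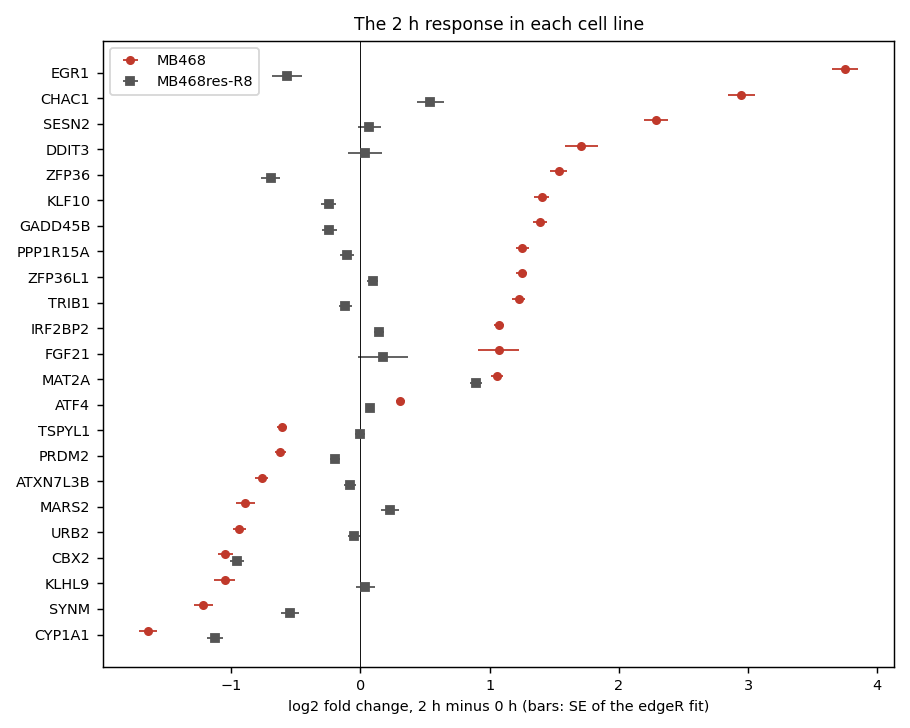
Log2 fold change between 2 h and 0 h (x axis) of 23 genes in MB468 (red circles) and MB468res-R8 (grey squares), with bars for the standard error of the fit. EGR1 is at 3.75 in MB468 and -0.57 in MB468res-R8, whereas MAT2A is at 1.06 and 0.89 and CBX2 at -1.04 and -0.95.

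Synthetic spike-in RNAs had been added during library preparation, in an amount per RNA or per cell that is not given in the sources used here, so it cannot be told whether their share reflects RNA per cell. They took 0.201%, 0.221% and 0.215% of counts at 0 h and 0.271%, 0.259% and 0.303% at 2 h (means 0.213% ± 0.00999 and 0.278% ± 0.0224, SD, n = 3; p = 0.1 by an exact permutation test, two-sided, which is the lowest p possible with 3 libraries a group). The groups did not overlap. When library sizes were set by the spike-ins, the median gene stood at -0.42 (log2), 9509 genes were called and 2.52% of the calls were higher. Early response genes kept a median of 0.65, with 24 called higher and 1 lower, whereas the ATF4 and CHOP list had 8 higher and 15 lower (median -0.21), clock genes 4 and 7, and EGFR family genes 3 and 3. CHAC1, SESN2 and DDIT3 remained higher there at 2.53, 1.87 and 1.30, and CYP1A1 and CBX2 lower at -2.06 and -1.46. The fold changes given above are therefore relative to the median gene.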

How the data were processed

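RNA-seq was analysed for the 3 MB468 libraries at 0 h and the 3 at 2 h, within a model of all 24 libraries. Per the labels and the study's methods, total RNA was poly(A)-selected with an unstranded kit and ERCC spike-ins, and single-end reads of 100 bases were aligned to GRCh38 with HISAT2 (2.1.0 in the submitters' processing notes) and counted per gene with featureCounts (Subread 1.5.3). The deposited values used are raw counts per gene. The authors also deposited normalized counts and their own comparisons (fold changes and p-values), which were not used.

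Of 26645 gene entries besides 92 spike-ins, 4 repeats of a symbol were dropped, and 14739 passed filterByExpr (minimum count 10). Counts were scaled by TMM and fitted by glmQLFit (robust) with 1 mean for each of 8 groups in edgeR 4.0.16 (limma 3.58.1, R 4.3.3), and contrasts were tested by glmQLFTest with Benjamini-Hochberg adjustment. The study used DESeq2 after RUVSeq with settings not given in the sources used here, so DESeq2 1.42.0 and a spike-in factor were alternatives. The fit was tested on simulated data. Promoters and gene positions were RefSeq's (GRCh38.p14), and exon counts came from GENCODE canonical transcripts. The libraries of a pair with the same replicate number correlated at 0.14, 0.073 and -0.136 over 6390 genes, so numbers were not taken as pairs. Depth limits genes with few counts most, and the shallowest library had 12015955 counts.

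The comparison and the 52 gene lists were chosen with earlier results of these data known. The text names 115 genes besides cell type markers. Of these, 104 follow a rule: per direction the 8 called genes with the smallest p, the 6 with the largest change at 1 CPM or more and no overlap, at most 3 called members per list, 13 genes set by hand, the 4 with the smallest p for the line difference, and 5 RNAs without a poly(A) tail. CEBPG, DDIT4, FOS, IER5, JAG1, MYC, NR4A1, NR4A3, PHLDA1, PKP1 and STC2 were chosen after their values were seen. Of the list members, some that lost their call when 1 replicate was left out are counted but not named, and a few genes that the rule names are not reported here.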

Additional observations from a re-analysis of the deposited data

Results flagged for a closer look

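The 2 h response differed between MB468 and MB468res-R8 for 750 genes by edgeR's test of the difference itself. Differences below subtract the MB468 response from the MB468res-R8 response on the log2 scale, each with an adjusted p under 0.05. A negative value is thus a smaller rise, a larger fall, or a fall in place of a rise (as in EGR1) in MB468res-R8. For the ATF4 and CHOP genes the differences were -2.40 for CHAC1, -2.22 for SESN2, -1.67 for DDIT3, -1.36 for PPP1R15A, -0.89 for FGF21 and -0.24 for ATF4. For genes of the early response list they were -4.32 for EGR1, -2.23 for ZFP36, -1.65 for KLF10 and -1.15 for ZFP36L1. Outside that list they were -1.63 for GADD45B, -1.34 for TRIB1 and -0.92 for IRF2BP2. Genes that fell in MB468 differed in the other direction, by 1.12 for MARS2, 1.09 for KLHL9, 0.89 for URB2, 0.68 for ATXN7L3B, 0.67 for SYNM, 0.60 for TSPYL1, 0.52 for CYP1A1 and 0.42 for PRDM2.

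Within MB468, 4815 genes differed between 2 h and 0.5 h. Spike-ins, which entered the comparison of genes only as an alternative scale, took a mean of 0.278% of counts at 2 h, above the 0.213% at 0 h. RNAs without a poly(A) tail took 0.371% of counts in MB468 2 h replicate 2, above the highest other library at 0.0351%.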

How the results depend on the processing

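Against 2425 genes called at 2 h, spike-in totals as library sizes gave 9509 and an adjusted p threshold of 0.01 gave 1572. The 249 genes called at 2-fold or more became 522 with spike-in totals and 133 when every library had to hold at least 10 counts. The 750 line differences became 431 at the stricter threshold. The other settings tried for these 3 counts, and every setting tried for the 4815 genes between 0.5 h and 2 h, stayed within 1.5 times of the value reported. Leaving out 1 replicate gave 1856 to 2273, 222 to 271, 577 to 800 and 4122 to 4501 for the 4 counts. Leaving out MB468 2 h replicate 2 and RNAs without a poly(A) tail together, a setting chosen after seeing the data, gave 2052, 213, 659 and 4349. With the replicate block, the counts were 2346, 245, 721 and 4740, and none of the 115 genes named changed its call.

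Directions turned for ACSL3 (-0.17), ATF4 (-0.10) and XBP1 (-0.20) with spike-in totals, and for RN7SL1 (-0.016) and RNA18S5 (-3.04) without MB468 2 h replicate 2; leaving out each replicate in turn gave -0.016 to 5.62 and -3.04 to 15.96 for these. The cause was not tested. With spike-in totals, 13 further named genes lost their call. The comparison of 12 h with 2 h was not recomputed. Genes with few counts are limited by the depth of the shallowest library. Thinning every library to 11712531 counts left 1993 calls at 2 h, and the named genes DUSP8 (0.99) and HES2 (1.71) lost their call.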
